A study of Homo sapiens with 6 samples.

Results

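Intermediate filament genes were taken by name from the deposited gene expression table: the keratin genes KRT7, KRT8, KRT18 and KRT19, vimentin (VIM), nestin (NES), the neuronal filament genes NEFL, NEFM and INA, and the A-type lamin gene LMNA. Of these 10 genes, 9 were among the 15897 genes listed. KRT19 was not listed, and whether it was not expressed or was removed before deposit is not known. All 9 listed genes passed the filter used for testing, a mean of at least 0.5 FPKM over the 6 libraries, which 14068 genes passed. KRT7, NES, NEFL, NEFM and INA passed it through their level in 1 group only.

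RNA was sequenced from cells labelled H1650, an established human lung adenocarcinoma cell line, in 3 libraries labelled control (genotype wild type) and 3 libraries labelled shSETD2. The shSETD2 label stands for short hairpin RNA against SETD2, which encodes a histone H3K36 methyltransferase. The study made stable lines with lentivirus and used 3 hairpin constructs, and the sources used here do not say which construct each library carries. Nor do they say that the libraries of a group came from separate cultures, so the p-values below measure only the spread between these libraries, which may be technical. Expression was given as FPKM, a fragment count divided by gene length and library total, a scale on which levels can be compared between genes per length. The number of fragments behind each value is unknown.

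Intermediate filaments are the rope-like fibres of the cytoskeleton, and the genes expressed differ by cell type. Simple epithelia such as those of the lung build them from obligate pairs of a type I and a type II keratin, mesenchymal cells from vimentin, and neurons from neurofilament subunits and α-internexin. The lamins are the nuclear branch of the family and form the meshwork under the inner nuclear membrane.

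SETD2, the targeted gene, was listed at 18.0, 10.2 and 17.6 FPKM in control replicates 1 to 3 and at 8.97, 8.09 and 12.2 FPKM in shSETD2 replicates 1 to 3. The groups overlapped, since control replicate 2 lay below shSETD2 replicate 3. In limma the adjusted p was 0.0641, at a log2 fold change of -0.58 with a standard error of 0.24. Without control replicate 2 it was -0.83 (adjusted p = 6.48e-03), and without shSETD2 replicate 3 it was -0.73 (adjusted p = 0.0418). Without each of the other 4 libraries in turn it ran from -0.45 to -0.53, with an adjusted p from 0.149 to 0.179. It was -0.25 with median ratio scaling (adjusted p = 0.377) and -0.50 with upper quartile scaling (adjusted p = 0.104). A replicate block gave an adjusted p of 0.0157, although libraries of the same number do not pair. The call of SETD2 thus depended on the library left out and on the fit. The libraries are therefore named here by their labels.

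The groups also stood far apart as a whole. Across the 15897 genes, which are not independent replicates, log2(FPKM + 1) had a Pearson r from 0.756 to 0.761 where a control was set against an shSETD2 library, and from 0.985 to 0.991 within either group. Whether the control and shSETD2 libraries come from the same cell line was not tested. A difference in the origin of the cells and the hairpin cannot be told apart here, which holds for every difference given.

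Markers of the labelled tissue were sparse in both groups. Of 16 lung epithelium markers, 6 were listed, and their summed FPKM was between 19.7 and 20.2 in the control libraries and between 12.6 and 13.8 in the shSETD2 libraries. The surfactant protein genes SFTPA1, SFTPA2, SFTPB, SFTPC and SFTPD were not listed. NKX2-1, the lung lineage transcription factor, was at 1.71, 1.80 and 1.44 FPKM in the control libraries and listed at 0 in all 3 shSETD2 libraries. The most abundant marker of the list was ABCA3, a lipid transporter of alveolar type II cells, at 13.5 FPKM on average in control and 8.32 in shSETD2. NKX2-1 and FOXA1, which averaged 2.39 FPKM in control and 0.452 in shSETD2, passed the filter through the control libraries alone and could only be lower. AGER was called lower only with the FPKM as deposited and not under 3 other scalings. MUC1, a mucin of many epithelia, went the other way, at 0.639 ± 0.133 FPKM in control and 2.65 ± 0.402 in shSETD2 (SD, n = 3), as did LAMP3, a lysosomal membrane protein of type II cells, at 0.584 ± 0.117 and 1.23 ± 0.0497 FPKM (SD, n = 3). Of 12 general epithelial markers 9 were listed, and CDH1, which encodes E-cadherin, was at 1.52, 1.43 and 0.860 FPKM in control and at 0.0107, 0.0140 and 0.0114 in shSETD2. NKX2-1 and the surfactant protein genes, which define lung epithelium, were thus low or not listed in the control libraries and at 0 or not listed in the shSETD2 libraries.

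Filament genes lay apart between the groups in both directions. Most genes of the table differed too: at an adjusted p under 0.05 in limma, 78.6% of the 14068 genes tested were called, with 26.8% higher in the shSETD2 libraries and 51.8% lower. A gene under the filter's level in 1 group passes only where it is higher in the other, so KRT7, which was higher, and NES, NEFL, NEFM and INA, which were lower, had to differ. No p-value is given for these 5, or for other genes that passed through 1 group only. The other 4, KRT8, KRT18, VIM and LMNA, were all called higher. Of the 11603 genes at a mean of 0.5 FPKM or more in both groups 75.3% were called, with 27.1% higher and 48.2% lower. For all 9 filament genes the groups did not overlap, which held for 80.9% of all genes tested. Since most genes differed, these counts say little by themselves, and the levels follow. Over the 14068 genes the median log2 fold change was -0.29, and it was -0.01 after median ratio scaling, -0.10 after quantile normalization and -0.22 after upper quartile scaling. Of the genes called, 34.1% were higher with the FPKM as deposited and 49.6% with median ratio scaling. KRT8, KRT18, VIM and LMNA kept their direction and their call under these 3 scalings. An exact permutation test of 3 libraries against 3 cannot give a p under 0.1, so the smaller p-values given here come from limma's model over all genes. In bulk RNA, fewer cells of a type and less RNA per cell cannot be told apart.

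**Figure D1:**
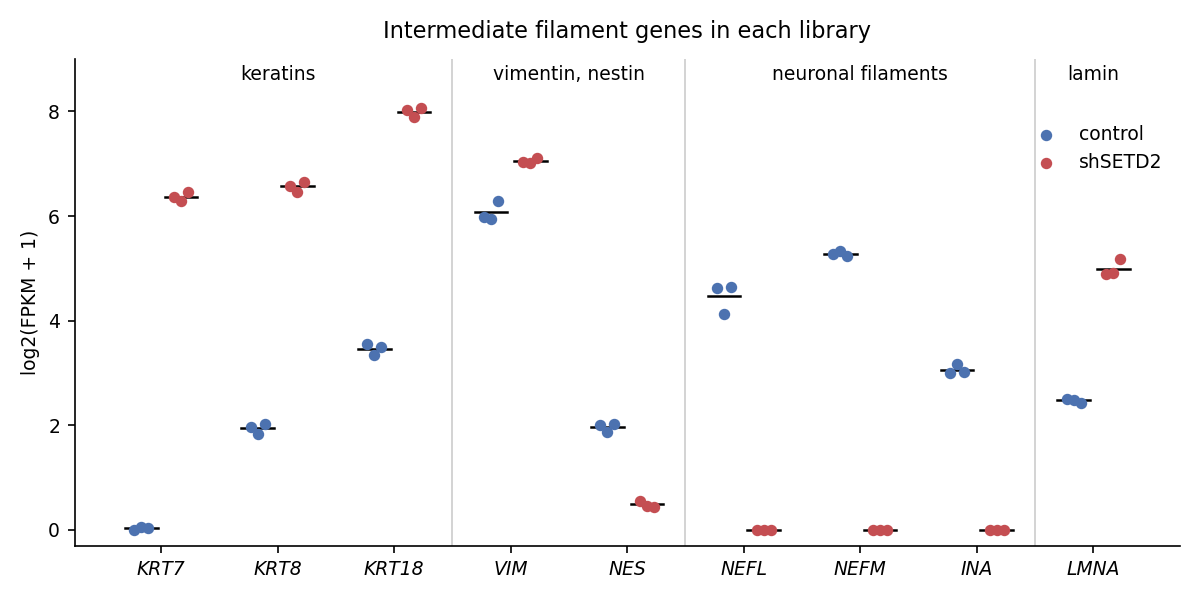
Expression of the 9 listed intermediate filament genes, as log2(FPKM + 1), in each control (blue) and shSETD2 (red) library, with a black line at the group mean. For every gene the 3 points of one group lie apart from the 3 of the other, and NEFL, NEFM and INA lie at 0 in all 3 shSETD2 libraries.

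The simple epithelial keratins listed were among the most abundant genes of the shSETD2 libraries and far lower in the control libraries, where KRT7 was at or near 0, KRT8 lay below the median of the listed genes and KRT18 above it. KRT7, a type II keratin of ductal and lung epithelium (ENSG00000135480.15_3, chr12:52626304-52645970, GRCh37), was listed at 0, 0.0375 and 0.0250 FPKM in control replicates 1 to 3 and at 81.6, 77.0 and 87.1 FPKM in shSETD2 replicates 1 to 3. All 3 shSETD2 libraries were high, and the control libraries lay at or near 0. On the log2(FPKM + 1) scale the fold change was 6.34 (standard error 0.058), a size that depends on the pseudocount, since it was 9.42 with a pseudocount of 0.1 and 11.65 with 0.01. Of all genes listed, 1.74% were, like KRT7, under 0.1 FPKM in every control library and at 1 FPKM or more in every shSETD2 library.

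KRT8 encodes the type II partner of the earliest keratin pair of embryonic and simple epithelia (ENSG00000170421.12_3, chr12:53290971-53343738). Its level was 2.93, 2.58 and 3.07 FPKM in the control libraries and 94.5, 87.2 and 99.96 FPKM in the shSETD2 libraries. The groups lay far apart, with a 32.8-fold ratio of the mean FPKM (adjusted p = 4.17e-08, log2 fold change 4.62 with standard error 0.072). KRT18, its type I partner (ENSG00000111057.10_3, chr12:53342655-53346685), was at 10.8, 9.11 and 10.2 FPKM in control and at 261.0, 236.5 and 266.2 FPKM in shSETD2. Its mean FPKM was 25.4-fold higher in the shSETD2 libraries (adjusted p = 4.47e-08, log2 fold change 4.53 with standard error 0.073). By rank of FPKM, KRT18 moved from between 3555 and 4340 in the control libraries to between 59 and 63 in the shSETD2 libraries, out of the 15897 genes listed.

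Levels of KRT8 and KRT18 carry an uncertainty that the table does not resolve. The annotated loci overlap by 1084 bases on opposite strands, and although the library kit was stranded, the strand setting of the quantification is not given in the sources used here. Both genes also have many near-identical processed pseudogenes. The ratio of KRT8 to KRT18 FPKM was 0.272, 0.283 and 0.300 in control replicates 1 to 3 and 0.362, 0.369 and 0.376 in shSETD2 replicates 1 to 3. The groups did not overlap (exact permutation test, two-sided p = 0.1, the smallest possible here). The ratio was thus 1.29 times as large in shSETD2, a small difference beside the rise of either gene, and KRT18 exceeded KRT8 in all 6 libraries.

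Vimentin, the type III filament of mesenchymal cells and of many cultured lines (VIM, ENSG00000026025.15_3, chr10:17270258-17279592), was abundant in both groups. It stood at 62.3, 60.6 and 76.7 FPKM in the control libraries and at 130.8, 128.8 and 137.5 FPKM in the shSETD2 libraries. The shSETD2 libraries were all higher, while control replicate 3 lay above the other control libraries. The mean was 66.5 ± 8.84 FPKM in the control and 132.4 ± 4.58 FPKM in the shSETD2 libraries (SD, n = 3). The log2 fold change of 0.99 lay 1.28 above the median of all genes (adjusted p = 7.82e-05, standard error 0.092). Vimentin and the keratins were therefore higher in the same libraries. The ratio of VIM to the summed FPKM of KRT7, KRT8 and KRT18 was nevertheless lower in shSETD2, at 0.299, 0.321 and 0.303, than in control, at 4.55, 5.17 and 5.75 (exact permutation test, two-sided p = 0.1).

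Nestin, which copolymerizes with vimentin and is known from neural progenitors (NES, ENSG00000132688.10_2, chr1:156638555-156647189), went the other way. It was at 3.04, 2.68 and 3.07 FPKM in control and at 0.467, 0.378 and 0.364 FPKM in shSETD2. All 3 shSETD2 libraries were low, and the mean was 7.28-fold higher in control. The log2 fold change was -1.49 with a standard error of 0.067, and a pseudocount of 0.01 in place of 1 gave -2.84.

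The neuronal filament subunits were above 0 in the control libraries alone. NEFM, the medium neurofilament chain (ENSG00000104722.13_2), was at 37.7, 39.1 and 36.5 FPKM in control replicates 1 to 3 and listed at 0 in all 3 shSETD2 libraries. NEFL, the light chain on which neurofilaments assemble (ENSG00000277586.2_3), was at 23.7, 16.4 and 24.1 FPKM in control and listed at 0 in all 3 shSETD2 libraries. INA encodes α-internexin, a type IV subunit of developing neurons (ENSG00000148798.10_3, chr10:105036920-105050108), and was at 6.98, 8.04 and 7.11 FPKM in control and listed at 0 in all 3 shSETD2 libraries. No fold change is given for these genes, since a listed 0 has no known floor. Of all genes listed, 2.19% were at 0 in every shSETD2 library and at 1 FPKM or more in every control library. NEFM and NEFL are neighbours with 31856 bases between them, and their FPKM ratio in the control libraries was 1.59, 2.38 and 1.52. Control replicate 2 set its upper end, with the lowest NEFL and the highest NEFM of the group.

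The sequences around the start sites of NES and INA, which were lower in the shSETD2 libraries, are shown beside that of VIM, which was higher. They come from RefSeq (table build GRCh38.p14) and span 250 bases before to 50 after the start. Of the 10 genes, 5 had an entry that was used here. NEFL and NEFM were left out of the search, so whether they have an entry is not given. KRT7, KRT18 and KRT19 had no entry. The entries of KRT8 and LMNA began over 100 bases from the start of the canonical transcript and are not shown. Each sequence below matched GRCh37 once, at a start that was also that of the canonical transcript. Capitals mark the GC box GGGCGG on either strand, which is bound by SP family factors.
NES, chr1:156647150-156647449, minus strand: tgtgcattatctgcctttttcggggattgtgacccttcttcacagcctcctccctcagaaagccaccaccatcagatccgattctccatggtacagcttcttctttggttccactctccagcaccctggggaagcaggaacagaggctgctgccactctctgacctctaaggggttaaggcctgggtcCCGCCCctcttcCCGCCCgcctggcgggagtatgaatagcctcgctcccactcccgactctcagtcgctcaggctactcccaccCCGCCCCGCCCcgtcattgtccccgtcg
INA, chr10:105036645-105036944, plus strand: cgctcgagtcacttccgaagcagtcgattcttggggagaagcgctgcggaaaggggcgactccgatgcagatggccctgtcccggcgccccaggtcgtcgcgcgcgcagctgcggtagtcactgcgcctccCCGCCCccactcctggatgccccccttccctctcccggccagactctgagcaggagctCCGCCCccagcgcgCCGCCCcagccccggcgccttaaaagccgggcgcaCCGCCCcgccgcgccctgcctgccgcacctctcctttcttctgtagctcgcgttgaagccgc
VIM, chr10:17269990-17270289, plus strand: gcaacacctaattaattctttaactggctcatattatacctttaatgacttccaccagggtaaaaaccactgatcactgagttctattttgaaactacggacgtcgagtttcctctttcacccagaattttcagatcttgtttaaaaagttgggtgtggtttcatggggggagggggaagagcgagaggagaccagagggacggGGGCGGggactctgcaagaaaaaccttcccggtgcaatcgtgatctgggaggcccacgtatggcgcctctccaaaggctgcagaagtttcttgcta
The window of NES held 4 GC boxes, of which a pair overlapped downstream of the start, that of INA held 4, all upstream, and that of VIM held 1. Of all 35116 promoters of the table, 45.0% held at least 1. The TATA box core TATAAA (11.5% of promoters), the letters CACCTG that SNAI and ZEB factors can bind (20.6%) and the AP-1 motif TGANTCA (7.71%) were searched on both strands and found in none of the 3 windows. INA had 35 CpG dinucleotides and a GC content of 71.3%, NES 14 and 60.3%, and VIM 10 and 48.0%, where the median promoter had 14 CpG. The entries of LMNA, which was higher in the shSETD2 libraries, had 23, 28 and 19 CpG, and that of KRT8, also higher, had 2. These last entries lie far from the start of the canonical transcript, and nothing is read from the number of CpG in so few windows.

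Summed over the cytoplasmic filament genes listed (keratins, VIM, NES, SYNM, NEFL, NEFM and INA), FPKM was 155.9 ± 11.3 in the control libraries and 624.5 ± 32.9 in the shSETD2 libraries (SD, n = 3), and the make-up of the sum differed. In the control libraries VIM took 42.6% of it on average, NEFL, NEFM and INA together 42.8%, type I keratins 9.27% and type II keratins 1.85%. In the shSETD2 libraries type I keratins took 42.7%, type II keratins 35.7%, VIM 21.2% and the neuronal subunits 0. The control libraries were thus led by vimentin and neuronal subunits, and the shSETD2 libraries by keratins.

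**Figure D2:**
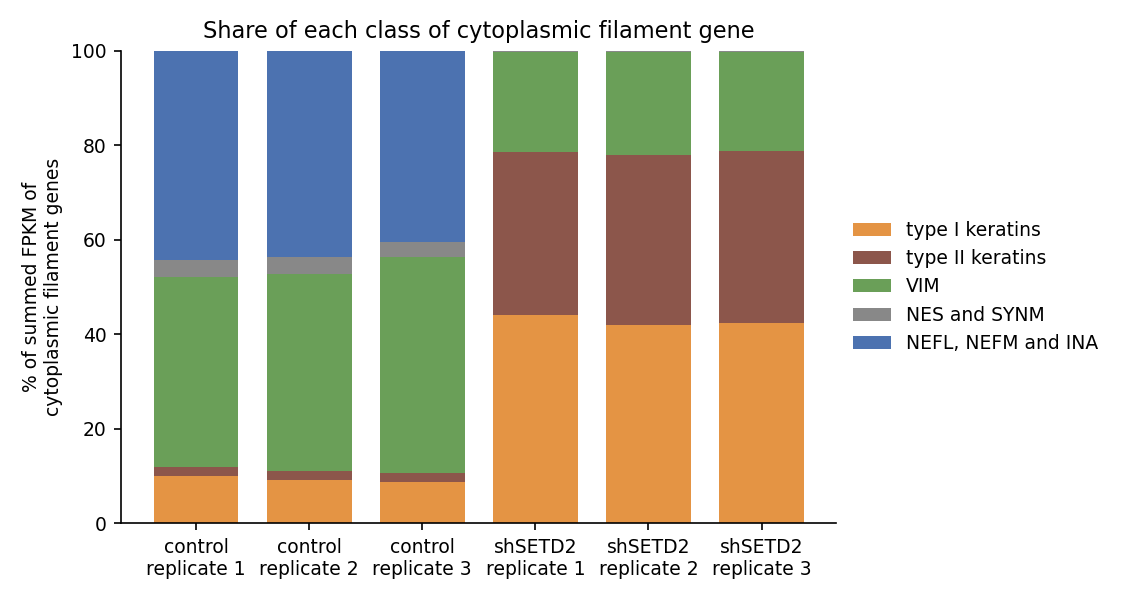
Share of each class of gene in the summed FPKM of cytoplasmic intermediate filament genes, in percent, with 1 stacked bar for each library. Neuronal subunits take between 40.4% and 44.3% in the control libraries and 0 in the shSETD2 libraries, where both keratin classes together take the largest share.

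LMNA encodes lamins A and C, the A-type lamins, which are usually more abundant in stiff and differentiated tissues (ENSG00000160789.19_2, chr1:156052364-156109880). It was at 4.66, 4.62 and 4.40 FPKM in the control libraries and at 28.7, 29.2 and 35.0 FPKM in the shSETD2 libraries. All 3 shSETD2 libraries were high, with replicate 3 the highest. The mean FPKM was 6.79-fold higher (adjusted p = 6.67e-07, log2 fold change 2.52 with standard error 0.083).

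B-type lamin genes, which most dividing cells express, differed far less. LMNB1 was at 34.5, 34.8 and 35.3 FPKM in control and at 29.1, 28.3 and 25.4 FPKM in shSETD2 (log2 fold change -0.33, adjusted p = 1.82e-03), and LMNB2 was at 54.2, 51.5 and 51.2 FPKM in control and at 47.0, 44.3 and 47.6 FPKM in shSETD2 (log2 fold change -0.17, adjusted p = 0.0103). Direction and size depended on scaling. With median ratio scaling the log2 fold change was 0.02 for LMNB1 (adjusted p = 0.811) and 0.18 for LMNB2 (adjusted p = 0.0124). With upper quartile scaling LMNB2 was not called (-0.09, adjusted p = 0.121). Quantile normalization made both differences larger, at -0.56 for LMNB1 (adjusted p = 1.01e-04) and -0.45 for LMNB2 (adjusted p = 6.21e-05). Within a library, where a scaling factor cancels, the ratio of LMNA to the sum of LMNB1 and LMNB2 was 0.0526, 0.0535 and 0.0509 in the control libraries and 0.376, 0.402 and 0.480 in the shSETD2 libraries. It was 8.02 times as large in shSETD2 (exact permutation test, two-sided p = 0.1), and B-type transcripts still exceeded LMNA in all 6 libraries.

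**Figure D3:**
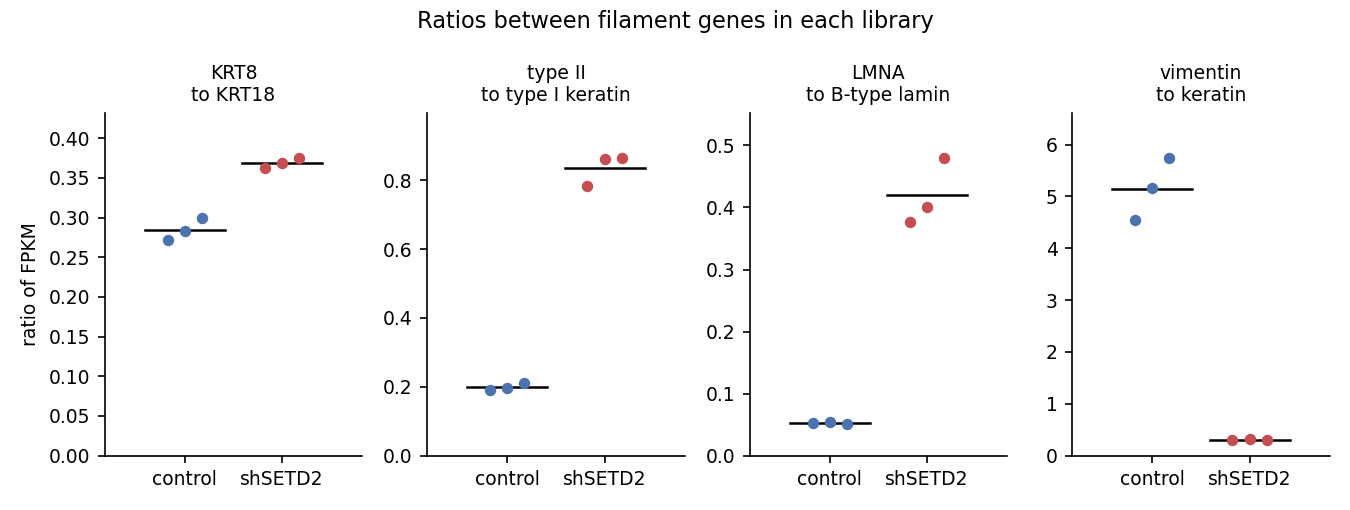
Ratios of FPKM in each control (blue) and shSETD2 (red) library, each panel on its own axis from 0, with a black line at the group mean. From left to right the mean ratio goes from 0.285 to 0.369, from 0.200 to 0.837, from 0.0523 to 0.419 and from 5.15 to 0.308, and the groups do not overlap in any panel.

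Other keratins were set against the members from a list of 50. The table listed 7 of them, and 3 were tested. KRT80 and KRT15 passed the filter through the shSETD2 libraries alone, which fixed their direction, so only their levels are given. KRT80, a type II keratin of many epithelia, was listed at 0 in every control library but at 36.95, 49.7 and 53.4 FPKM in shSETD2 replicates 1 to 3. KRT15, a type I keratin of basal epithelial cells, was listed at 0 in control and at 5.40, 5.11 and 6.09 FPKM in shSETD2. KRT10, a type I keratin of differentiating epidermis, was present in both groups, at 4.49, 4.21 and 4.25 FPKM in control and 6.43, 6.91 and 5.94 FPKM in shSETD2 (log2 fold change 0.48, adjusted p = 4.94e-04). KRT17, KRT34, KRT81 and KRT86 stayed under 1 FPKM in all 6 libraries and were not tested. KRT81 and KRT86 are close paralogs, so their low values are uncertain.

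Over all listed keratins, 5 of each type, the ratio of type II to type I FPKM was 0.191, 0.197 and 0.211 in the control libraries and 0.783, 0.862 and 0.866 in the shSETD2 libraries (exact permutation test, two-sided p = 0.1). The mean ratio was 4.19 times as large in shSETD2, and 2.07 times as large with 1 FPKM added to each gene. Type I keratins thus exceeded type II keratins in every library, at a ratio nearer to equal in shSETD2. In summed FPKM the excess was larger there, with means of 267.0 for type I and 223.3 for type II in shSETD2 and of 14.4 and 2.88 in control. KRT7 and KRT80, at or near 0 in control, together with KRT8 made up nearly all of the type II sum in the shSETD2 libraries. The ratio thus includes genes seen in 1 group only. Between KRT8 and KRT18, present in both groups, the ratio was 1.29 times as large in shSETD2.

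All 5 type II keratins listed, and KRT18, lie on chromosome 12 within 783906 bases (chr12:52562780-53346685). The table listed 6 genes wholly inside this stretch, and all 6 were keratins. KRT80, KRT7, KRT8 and KRT18 were at 36.95 FPKM or more in every shSETD2 library, whereas KRT86 and KRT81, which lie between KRT7 and KRT8, were under 1 FPKM. The locus of KRT86 starts inside that of KRT7 on the same strand, so reads of the overlap could be assigned to either. High levels in the shSETD2 libraries therefore did not extend to every listed keratin of the stretch.

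**Figure D4:**
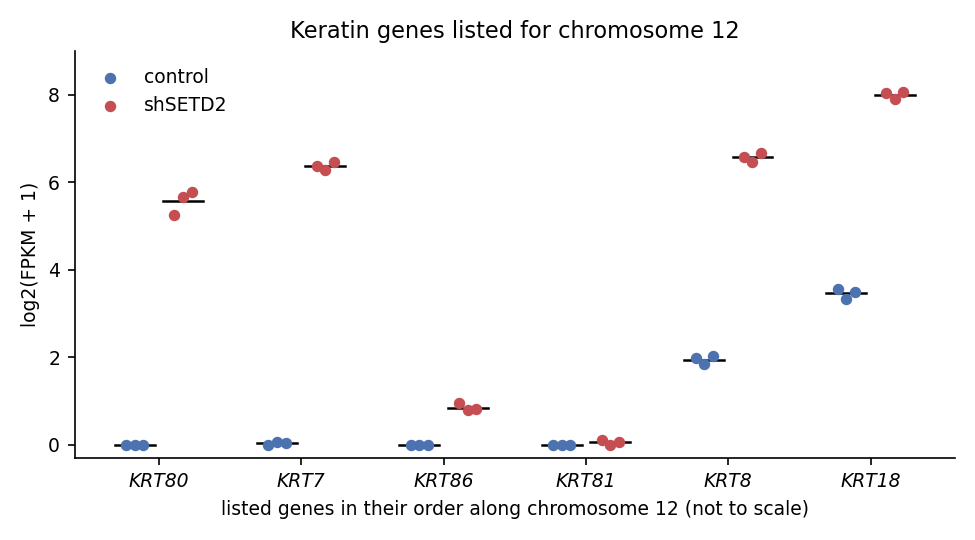
Expression, as log2(FPKM + 1), of the 6 keratin genes listed between KRT80 and KRT18 on chromosome 12, in each control (blue) and shSETD2 (red) library, in their order along the chromosome and not to scale, with a black line at the group mean. KRT86 and KRT81 stay under 1 FPKM in all 6 libraries, between genes that are far higher in shSETD2.

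Of 5 other type III and IV filament genes, DES, GFAP, PRPH and NEFH were not listed. SYNM, which encodes synemin, which copolymerizes with other subunits, was at 2.64, 2.55 and 2.52 FPKM in control and 1.47, 1.41 and 1.40 FPKM in shSETD2 (log2 fold change -0.56, adjusted p = 7.37e-05). Its direction was thus that of nestin. BFSP1, known from the lens, was under 1 FPKM in all 6 libraries and passed the filter through the control libraries alone, and its log2 fold change of -0.28 changed sign with quantile normalization, at 0.26.

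Plakins tie filaments to junctions and to the other parts of the cytoskeleton. All 7 were tested, but EVPL and PPL passed the filter through the shSETD2 libraries alone and EPPK1 through the control libraries alone. The other 4, PLEC, MACF1, DST and DSP, were all higher, also under the 3 scalings. Their median log2 fold change was 1.42, beside -0.22 over all 11603 genes at the filter's level in both groups. Of these 11603 genes 27.1% were higher and 48.2% lower. PLEC (plectin), which links keratin and vimentin filaments to hemidesmosomes and actin, was at 8.85, 9.29 and 9.19 FPKM in control and at 96.6, 87.9 and 96.0 FPKM in shSETD2 (log2 fold change 3.22, adjusted p = 3.93e-08). PPL (periplakin), a linker of keratins to the desmosomal plaque, was at 0.165, 0.116 and 0.150 FPKM in control and at 9.89, 8.83 and 10.2 FPKM in shSETD2. MACF1, which joins actin and microtubules, was 5.80-fold higher in mean FPKM, averaging 8.04 ± 0.275 in the control and 46.6 ± 0.708 in the shSETD2 libraries (SD, n = 3). Lower in shSETD2 was EPPK1 (epiplakin), a keratin-binding plakin, at 3.93, 3.95 and 3.70 FPKM in control and 0.160, 0.130 and 0.104 FPKM in shSETD2.

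Desmosomes anchor keratins at junctions between cells. Of 12 desmosome genes 7 were listed and tested, of which PKP3 passed the filter through the shSETD2 libraries alone. Of the other 6, 3 were higher and none was lower, with a median log2 fold change of 0.18. Among all genes at the filter's level in both groups 27.1% were higher and 48.2% lower. With median ratio scaling all 6 were higher, and with quantile normalization 3 were higher and 1 was lower. PKP3 (plakophilin 3), a plaque protein, was listed at 0 in every control library but at 7.87, 7.41 and 7.87 FPKM in shSETD2. JUP (plakoglobin), which couples desmosomal cadherins to the plaque, was at 11.3, 12.7 and 12.1 FPKM in control and 45.4, 41.9 and 45.2 FPKM in shSETD2 (log2 fold change 1.79, adjusted p = 5.45e-07). The desmosomal cadherin DSC3 averaged 14.4 ± 0.350 FPKM in the control and 21.3 ± 1.16 FPKM in the shSETD2 libraries (SD, n = 3), and DSC2 averaged 6.18 ± 0.0385 and 8.24 ± 0.544 FPKM. The most abundant gene of the list, the cadherin DSG2, was at 48.9, 51.6 and 48.9 FPKM in control and 49.4, 52.1 and 48.6 FPKM in shSETD2. Its groups overlapped, and its log2 fold change of 0.01 (adjusted p = 0.899) was 0.35 with median ratio scaling and -0.26 with quantile normalization.

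Hemidesmosomes anchor keratins to the basement membrane through the integrin α6β4. Of 4 genes 3 were listed. ITGA6 and CD151 were higher in shSETD2, under the 3 scalings too, and ITGB4 passed the filter through the shSETD2 libraries alone. ITGA6 was at 4.19, 4.51 and 6.02 FPKM in control and at 41.4, 40.8 and 42.0 FPKM in shSETD2 (log2 fold change 2.86, adjusted p = 1.45e-06). Its partner ITGB4 was lower in level, at 0.355, 0.437 and 0.474 FPKM in control and 2.78, 2.24 and 2.33 FPKM in shSETD2. The tetraspanin CD151 averaged 9.69 ± 1.81 FPKM in the control and 29.4 ± 4.87 FPKM in the shSETD2 libraries (SD, n = 3), with an adjusted p of 1.73e-04 at a log2 fold change of 1.51.

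**Figure D5:**
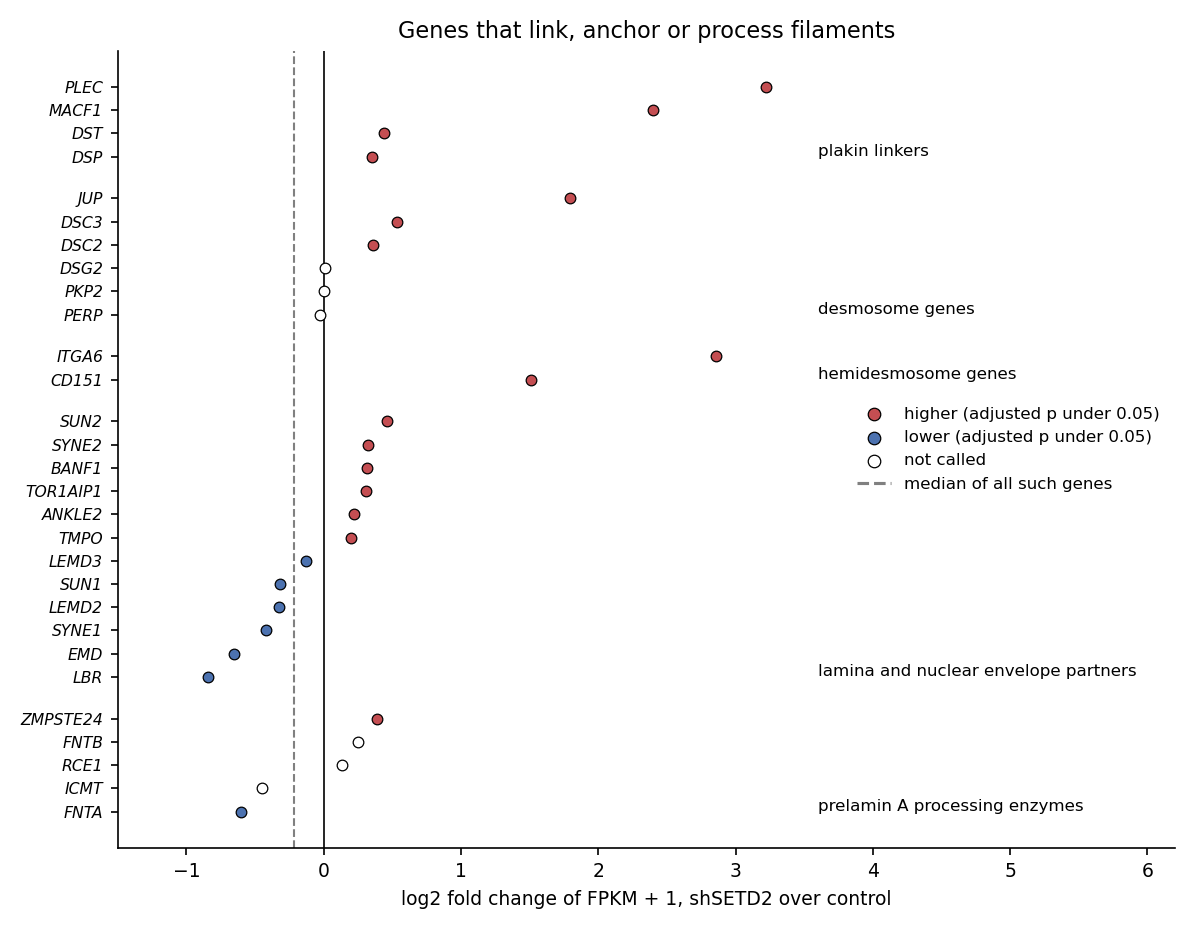
Log2 fold change of FPKM + 1, shSETD2 over control, of each tested gene of 5 lists that was at a mean of 0.5 FPKM or more in both groups. Filled points passed an adjusted p under 0.05 in limma, and the dashed line is the median of all such genes at -0.22. Plakin and hemidesmosome genes reach 3.22 and 2.86, while the lamina partners lie between -0.84 and 0.46, where signs and calls near 0 depend on scaling.

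Those partners of the lamina that were tested differed by less than LMNA itself. Of 14 genes of the lamina and nuclear envelope 13 were listed and 12 were tested, with 6 higher and 6 lower, and a median log2 fold change of 0.04. Of all 11603 genes at the filter's level in both groups 27.1% were higher and 48.2% lower, so these counts say little by themselves. For the 12, median ratio scaling gave 7 higher and 3 lower, and quantile normalization 5 and 3. LEMD3 turned from -0.13 to 0.20 with median ratio scaling, and SUN1 from -0.32 to 0.0039 with no call. LEMD3, LEMD2 and TMPO lost their calls under 1 or more scalings and in some fits without 1 library. The one listed but not tested, SYNE3, a nesprin, was low and lay further apart in ratio than LMNA, at 0.689, 0.845 and 0.627 FPKM in control and 0.0108, 3.20e-03 and 3.92e-03 FPKM in shSETD2. LBR, the lamin B receptor, was at 30.9, 31.2 and 29.4 FPKM in control and 15.7, 17.2 and 16.8 FPKM in shSETD2 (log2 fold change -0.84, adjusted p = 7.92e-06). EMD, which encodes emerin, a partner of A-type lamins, was at 34.5, 33.1 and 35.3 FPKM in control and 20.4, 20.9 and 23.1 FPKM in shSETD2 (log2 fold change -0.65, adjusted p = 5.92e-05). SUN2, which couples the lamina to the cytoskeleton, was at 8.67, 8.38 and 9.23 FPKM in control and 13.4, 11.7 and 12.2 FPKM in shSETD2 (log2 fold change 0.46, adjusted p = 5.90e-04). SYNE1, a nesprin bound by SUN proteins, had a log2 fold change of -0.42 (adjusted p = 3.50e-04), which was 0.01 with quantile normalization (adjusted p = 0.868).

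Enzymes that turn prelamin A into lamin A did not move as a group, with 1 of 5 higher, 1 lower and 3 not called. Among all genes at the filter's level in both groups 27.1% were higher and 48.2% lower. FNTA, a subunit of the farnesyltransferase, was at 4.18, 4.41 and 4.52 FPKM in control and 2.58, 2.78 and 2.26 FPKM in shSETD2 (log2 fold change -0.60, adjusted p = 2.71e-04). ZMPSTE24, the protease that releases mature lamin A, was at 16.7 FPKM in each control library and at 20.3, 24.5 and 21.7 FPKM in shSETD2 (log2 fold change 0.39, adjusted p = 2.18e-03). Both kept these directions under the 3 scalings, although 3 of the 5 were higher with median ratio scaling or quantile normalization.

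Transcription factors linked to epithelial or mesenchymal gene programmes were read from fixed lists. Of 10 epithelial factors 4 were tested, and ELF3 passed the filter through the shSETD2 libraries alone. Of the other 3, 1 was higher and 1 lower, against 1 and 0 with median ratio scaling and 2 and 1 with quantile normalization. Since 75.3% of all genes at the filter's level in both groups were called, these counts say little by themselves. KLF4, which acts in epithelial differentiation, was at 1.83, 2.46 and 1.74 FPKM in control and 13.9, 12.3 and 13.3 FPKM in shSETD2 (log2 fold change 2.24, adjusted p = 2.74e-06), and ELF3, an epithelial ETS factor, was at 0.221 ± 0.0358 and 4.23 ± 0.147 FPKM (SD, n = 3). KLF5, the most abundant, had a log2 fold change of -0.51 (adjusted p = 8.97e-04), which was -0.20 with median ratio scaling (adjusted p = 0.0539). GRHL2, OVOL1, OVOL2 and TP63 were not listed.

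Of 7 mesenchymal factors 6 were tested, of which SNAI2, TWIST1 and TWIST2 passed the filter through the control libraries alone. Of the other 3, SNAI1 was higher, ZEB2 was lower and ZEB1 was not called, also under the 3 scalings. By comparison, 75.3% of all genes at the filter's level in both groups were called. SNAI2, a repressor of epithelial genes, was at 14.4, 14.5 and 14.1 FPKM in control and at 0, 0 and 0.0321 FPKM in shSETD2. TWIST1, a bHLH factor of mesoderm, was at 7.34, 8.02 and 8.37 FPKM in control and listed at 0 in all 3 shSETD2 libraries, and its paralog TWIST2 was at 1.47, 1.40 and 1.04 FPKM and likewise at 0. SNAI1, a close relative of SNAI2, was higher, at 1.96, 2.58 and 3.91 FPKM in control and 5.97, 4.78 and 6.69 FPKM in shSETD2 (log2 fold change 0.86, adjusted p = 7.20e-03). Vimentin was thus higher in the libraries where SNAI2 and both TWIST genes were at or near 0.

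Markers of other cell types also differed between the groups, in both directions, and their part in the differences of the filament genes was not tested. Of 15 neuronal markers 7 were listed, with a summed FPKM between 38.9 and 41.4 in the control libraries and between 18.3 and 19.8 in the shSETD2 libraries. The most abundant, UCHL1, was at 29.5, 28.1 and 30.2 FPKM in control and listed at 0 in all 3 shSETD2 libraries, as were SYT1, GAP43 and INSM1. Of the 6 tested, UCHL1, SYT1, INSM1 and MAPT passed the filter through the control libraries alone and could only be lower. GAP43 was not tested. Only TUBB3 and SYP were at the filter's level in both groups. TUBB3, a neuronal tubulin also found in many tumour lines, was higher in shSETD2, at 16.1 ± 0.795 FPKM (SD, n = 3) beside 1.32 ± 0.610 (SD, n = 3). SYP averaged 2.14 FPKM in control and 2.66 in shSETD2, without overlap between the groups. It was not called in limma (log2 fold change 0.23, adjusted p = 0.0606), but was called higher under the 3 scalings. Defining neuronal genes such as RBFOX3, STMN2, DCX and ELAVL4 were not listed.

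Of 7 neural progenitor markers 3 were listed, with a summed FPKM between 19.6 and 20.8 in control and between 2.41 and 2.94 in shSETD2. MSI1, the most abundant, was at 15.8, 14.5 and 15.6 FPKM in control and listed at 0 in shSETD2. SOX2 was lower as well, and PAX6 was higher, at 1.76 FPKM on average in control and 2.58 in shSETD2. Of 15 mesenchymal markers 11 were listed, with sums between 44.8 and 45.2 FPKM in control and between 38.9 and 40.4 FPKM in shSETD2, and the most abundant was CDH2, at 20.5 ± 0.882 and 23.2 ± 1.09 FPKM (SD, n = 3). CDH2 was called higher at a log2 fold change of 0.17 (adjusted p = 0.0248), but not with quantile normalization, with a replicate block or in 3 of the 6 fits without 1 library. Of the 7 tested, 3 passed the filter through the control libraries alone and could only be lower: the collagen genes COL1A1, at 2.78 FPKM on average in control and 0.269 in shSETD2, and COL5A1, at 3.66 and 1.73e-03, and the matrix protein gene SPARC, at 4.46 and 0.0225. Of the other 3 beside CDH2, FN1, which encodes fibronectin, was higher, at 6.37 ± 0.181 and 14.0 ± 0.484 FPKM (SD, n = 3). ACTA2, which encodes smooth muscle actin, was lower, averaging 4.43 and 1.12 FPKM, and TAGLN was not called. The mesenchymal markers that could go either way thus did not share a direction.

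General epithelial markers summed to between 9.42 and 10.9 FPKM in control and between 7.07 and 7.72 FPKM in shSETD2, and ST14 was listed at 0 in all shSETD2 libraries. Most of the sum came from OCLN, a tight junction gene whose groups overlapped, at a log2 fold change of 0.08 (adjusted p = 0.238) that was called higher under the 3 scalings, at 0.38, 0.22 and 0.15. Of the 9 listed, 5 were lower in shSETD2 without overlap between the groups (CDH1, EPCAM, ESRP2, CLDN7 and ST14) and 2 were higher (ESRP1 and CLDN4). EPCAM, an epithelial adhesion molecule, averaged 0.710 and 0.220 FPKM, the claudin gene CLDN7 0.192 and 7.97e-06, and ESRP2, an epithelial splicing factor, 1.93 and 0.0219. Its paralog ESRP1 was at 0.0439, 8.79e-03 and 0 FPKM in control and at 0.639, 0.962 and 0.808 FPKM in shSETD2, and CLDN4, another claudin, averaged 0.0670 and 0.175 FPKM. These shares are near those of all genes tested, of which 51.8% were called lower and 80.9% had groups that did not overlap, so they say little by themselves. CDH1 and ESRP2 passed the filter through the control libraries alone, and EPCAM, CLDN7, ST14, ESRP1 and CLDN4 were not tested. The keratins were thus higher in libraries where E-cadherin was near 0.

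All 11 renal epithelium markers were listed, with sums between 29.8 and 33.8 FPKM in control and between 60.5 and 71.7 FPKM in shSETD2. The most abundant, PAX8, was at 0.0147, 0.0368 and 0 FPKM in control and at 35.2, 28.1 and 29.2 FPKM in shSETD2. SIX2, EYA1, SALL1 and EMX2 showed the reverse, being present in control and listed at 0 in all shSETD2 libraries.

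The genes most like KRT7 and NEFM over the 6 libraries were sought by Euclidean distance of log2(FPKM + 1). The members themselves were left out of this search. For KRT7, the member with the most positive log2 fold change, the nearest were HIST1H2BH (a replication-dependent histone, distance 0.11), LRRN4 (a leucine-rich repeat protein, 0.28) and S100A16 (a calcium-binding protein, 0.45). For NEFM, the member with the most negative, they were BEX4 (distance 0.19), ID4 (an inhibitor of bHLH factors, 0.32) and UCHL1 (0.63). HIST1H2BH was at 83.2, 75.8 and 82.7 FPKM in shSETD2 replicates 1 to 3, beside 81.6, 77.0 and 87.1 for KRT7. BEX4 was at 39.5, 40.5 and 41.3 FPKM in control replicates 1 to 3 and listed at 0 in all 3 shSETD2 libraries, as NEFM was.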

How the data were processed

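Total RNA of 6 libraries, 3 control and 3 shSETD2, was prepared with a stranded kit and sequenced. The authors mapped reads to hg19 (GRCh37) with Hisat2, quantified genes with Ballgown and deposited FPKM per gene and library. Tool versions and the rule that chose the listed genes are not given in the sources used here. A second deposited table holds the authors' comparison (log2 fold changes, fold changes, p-values and q-values) and was not used. No common step was found among low values, so depth is unknown. A mean of 0.5 FPKM or more was required, and log2(FPKM + 1) was fitted in R 4.3.3 by limma 3.58.1 (lmFit, then eBayes with trend), with Benjamini-Hochberg adjustment over all genes tested and a threshold of 0.05. The fit was tested on simulated data. Fold changes on this scale understate those of low genes. Ratios within a library were compared by exact permutation (scipy 1.17.1). Alternatives were other pseudocounts, filters and scalings, no trend, a replicate block and each library left out. All members were described. Of each fixed list up to 4 called genes with the largest changes, and the most abundant, were named. For 2 members the 3 genes nearest in pattern, sought outside the members, were named too. Marker genes, SETD2, SYNE3, genes whose sign turned and genes given only as not listed stand outside that rule, some of them chosen after their values were seen. Some genes of the marker lists are not reported here. The members and lists were chosen with earlier results of these data known.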

Additional observations from a re-analysis of the deposited data

How the results depend on the processing

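KRT8, KRT18, VIM and LMNA, at the filter's level in both groups, kept their direction and their call in every alternative in which they were tested. For KRT7, NES, NEFL, NEFM and INA the filter fixed the direction. With no filter on low values 5 filament genes were called higher and 4 lower. In that fit 12203 of the 15897 listed genes were called, so these counts say little by themselves. NES and INA dropped out with a mean FPKM of at least 5, which left 2 genes called lower and, with fewer genes tested, 5647 genes called in place of 11057. Leaving out 1 library at a time gave between 10491 and 10921 genes called, with KRT8, KRT18, VIM and LMNA higher each time. The replicate numbers do not pair the libraries, since deviations from the group means correlated at -0.024, 0.018 and -0.008 between libraries of the same number, and a replicate block gave 10976 genes called, these 4 among them.

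The ratio between the shSETD2 and the control mean of each gene ratio was 1.29 for KRT8 to KRT18, 4.19 for type II to type I keratins, 8.02 for LMNA to B-type lamins and 0.0598 for vimentin to keratins. With 1 FPKM added to each gene these became 1.06, 2.07, 6.76 and 0.0727. Without 1 library they ran from 1.27 to 1.33, from 4.10 to 4.33, from 7.44 to 8.43 and from 0.0564 to 0.0634.

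Signs turned for 11 of the 60 genes tested among members and lists without markers, none a member, and for 10 of them under a scaling. With median ratio scaling the log2 fold change was 0.015 for LMNB1, 0.18 for LMNB2, 0.31 for PERP, 0.20 for LEMD3, 0.0039 for SUN1 and 0.11 for ZEB1. With quantile normalization it was 0.26 for BFSP1, -0.26 for DSG2, 0.010 for SYNE1, 0.28 for GRHL1 and 0.098 for ZEB1, and 0.079 for the marker AGER. With upper quartile scaling it was 0.057 for PERP. With 1 library left out, DSG2 ran from -0.022 to 0.032, PKP2 from -0.074 to 0.096, PERP from -0.072 to 0.0073 and ZEB1 from -0.31 to 0.093. The cause was not tested. SETD2 (-0.58, not called) was called with the replicate block and without control replicate 2 or shSETD2 replicate 3. Calls were lost by LMNB2 with upper quartile scaling, and by LMNB1, KLF5, SUN1 and BFSP1 with median ratio scaling. SYNE1 lost its call with quantile normalization, and LEMD2 under the 3 scalings and in 4 fits without 1 library. LEMD3 lost it in 9 alternatives, 5 of them without 1 library, and TMPO with quantile normalization and in 2 fits without 1 library. AGER was not called under the 3 scalings and in 5 fits without 1 library. DSG2, PKP2, PERP, FNTB and RCE1 gained a call with median ratio scaling, and DSG2, FNTB and RCE1 also with quantile normalization. The sign had turned for PERP with median ratio scaling and for DSG2 with quantile normalization. GRHL1 gained one as lower in 4 alternatives and as higher with quantile normalization, and RCE1 without shSETD2 replicate 2. CDH2 (0.17, adjusted p = 0.0248 in limma) lost its call with quantile normalization, with the replicate block and without control replicate 3, shSETD2 replicate 2 or shSETD2 replicate 3.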
